A study of Mus musculus with 28 samples.

Results

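The unfolded protein and ATF4 stress response genes are 40 genes, listed by symbol, that act when a cell holds too much unfolded protein in the endoplasmic reticulum (ER) or too little amino acid. They were found by gene identifier among the 55414 genes of a count table from mouse ear skin and fall into 5 role groups. These are 9 regulators of the ATF4 branch and 10 genes listed as ATF4 amino acid genes, whose control by ATF4 was not tested. The others are 5 ER stress sensors and transcription factors, 9 ER folding genes and 7 genes of ER-associated degradation. Of the 40, 39 had enough counts to be tested. Derl3, a pore protein gene of ER-associated degradation, had 1 to 13 counts per library and is given no fold change. RNA of the ear was sequenced from 28 female C57BL/6J mice of 6 to 8 weeks, 1 library per mouse. The groups were TPA+RGRN-305 (n = 10), TPA (n = 10), RGRN-305 (n = 4) and vehicle (n = 4). RGRN-305, an inhibitor of the chaperone HSP90, was put on the ear at 1 mg, or acetone in its place, 100 min before TPA at 2.5 µg per ear or acetone. TPA, a phorbol ester, acts on protein kinase C and inflames the skin, and ears were taken 4 hours after it. The methods mention repeated experiments without tying a mouse to one, so p-values measure the spread between mice only.

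The unfolded protein response runs through sensors in the ER membrane. PERK (gene Eif2ak3) phosphorylates the translation factor eIF2, which lowers protein synthesis and favours translation of the ATF4 mRNA. IRE1 (gene Ern1) splices the Xbp1 mRNA, and ATF6 is cut in the Golgi and enters the nucleus. XBP1 and ATF6 are known to raise chaperones, disulfide isomerases and the machinery that returns misfolded proteins to the cytosol, whereas ATF4 is known to raise amino acid transporters and enzymes. eIF2 is also phosphorylated by kinases that sense amino acid shortage, viral RNA or heme shortage, so that ATF4 and its targets can move without the ER branches. In skin, keratinocytes and fibroblasts make secreted and membrane proteins that are folded in the ER. ATF4 and PERK are controlled largely after transcription, and Xbp1 splicing is not visible in counts per gene, so the values below are mRNA levels.

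Totals per library ran from 16751780 to 24716640 counts. The 5 keratinocyte markers (among them Krt5 and Krt14) summed to 22721 to 29030 CPM (counts scaled by library size) over all groups. Of the 5, 2 were higher and 1 lower with TPA, and 3 were higher and 1 lower with RGRN-305 added. Neutrophil markers (6, of which Ly6g had 3 counts or fewer over all RGRN-305 mice and over all vehicle mice) summed to 10.6 to 48.3 CPM in TPA+RGRN-305 mice, 200.9 to 318 CPM in TPA mice, 6.25 to 14.1 CPM in RGRN-305 mice and 5.93 to 12.8 CPM in vehicle mice, and 5 of the 5 tested rose with TPA and fell when RGRN-305 was added. These markers therefore moved with the comparisons below, and their part in the results was not tested. Plasma cells are secretory cells with high unfolded protein genes, and their 6 markers summed to 9.92 to 14.5 CPM in TPA+RGRN-305 mice, 5.30 to 8.55 CPM in TPA mice, 10.4 to 14.9 CPM in RGRN-305 mice and 12.4 to 15.3 CPM in vehicle mice. Of these, 2 had enough counts to be tested, and 1 was higher and 1 lower with TPA while 1 was higher and 0 lower with RGRN-305 added. The part of these sums in the results was not tested either. In bulk tissue fewer cells of a type and less RNA per cell cannot be told apart. TPA+RGRN-305 mouse 6 had 0.588 CPM of Xist, against 370 to 802 CPM elsewhere, here scaled by library totals alone. The Y-linked genes Ddx3y, Uty, Eif2s3y and Kdm5d each had 3 counts or fewer over all TPA+RGRN-305 mice, and likewise in each other group. Hair follicle keratins (Krt71 above 5 CPM, also by library totals alone) were seen in TPA+RGRN-305 mice 1, 2, 6 and 9, TPA mouse 3 and RGRN-305 mice 3 and 4. Counts were scaled by TMM. With library totals alone the median over all genes of the log2 fold change shifted by -0.29 for TPA against vehicle and by 0.26 for the addition of RGRN-305 to TPA. The sign of a change is therefore uncertain where it is smaller than this shift and runs against it, that is for small rises with TPA and small falls with RGRN-305 added.

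TPA raised most regulators of the ATF4 branch and the amino acid transporter genes among the members (Slc7a1, Slc7a5 and Slc3a2) by 2-fold or more. Listed transporter genes outside the members went both ways with TPA. Slc7a11, Slc38a2 and Slc1a5 were higher (log2 fold changes of 2.15, 0.74 and 0.48). Slc1a4 and Slc6a9 were lower (-0.64 and -0.61), and Slc7a3 was not called (-0.52). The 9 ER folding members stayed closer to the vehicle level, with log2 fold changes from -0.64 to 0.55. This does not hold for all ER chaperones. Among 13 other ER chaperone and oxidase genes, outside the members, 7 were higher and 2 lower with TPA, and Hspa5 had 1.21. In TPA versus vehicle, 22 of 39 members were higher and 10 were lower at an adjusted p under 0.05 (edgeR quasi-likelihood test, Benjamini-Hochberg over 18991 genes), where 31.6% of all genes were higher and 34.4% lower. At 2-fold or more, 10 were higher and 0 lower (10.8% and 10.4% of all genes), and all of the 10 belonged to the ATF4 branch, the amino acid genes or, in the case of Ern1, the sensors. The median log2 fold change was 0.26 over the members and -0.03 over all genes. With RGRN-305 given before TPA, 10 of 39 members were higher and 24 lower than with TPA (33.0% and 32.6% of all genes), and at 2-fold or more 0 were higher and 6 lower (5.50% and 7.11%). The median was -0.16, against 0.02 over all genes. Both comparisons share the TPA mice, so that opposite signs in them are partly built in. Scaled by library totals alone, 14 members were higher and 17 lower with TPA, and 19 were higher and 13 lower with RGRN-305 added. Of all genes called under that scaling, 28.1% were higher with TPA and 74.2% were higher with RGRN-305 added. Without the 7 libraries with hair follicle keratins the counts were 22 and 10 with TPA, and 9 and 21 with RGRN-305 added. Without TPA+RGRN-305 mouse 6 they were 22 and 10, and 10 and 23.

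**Figure D1:**
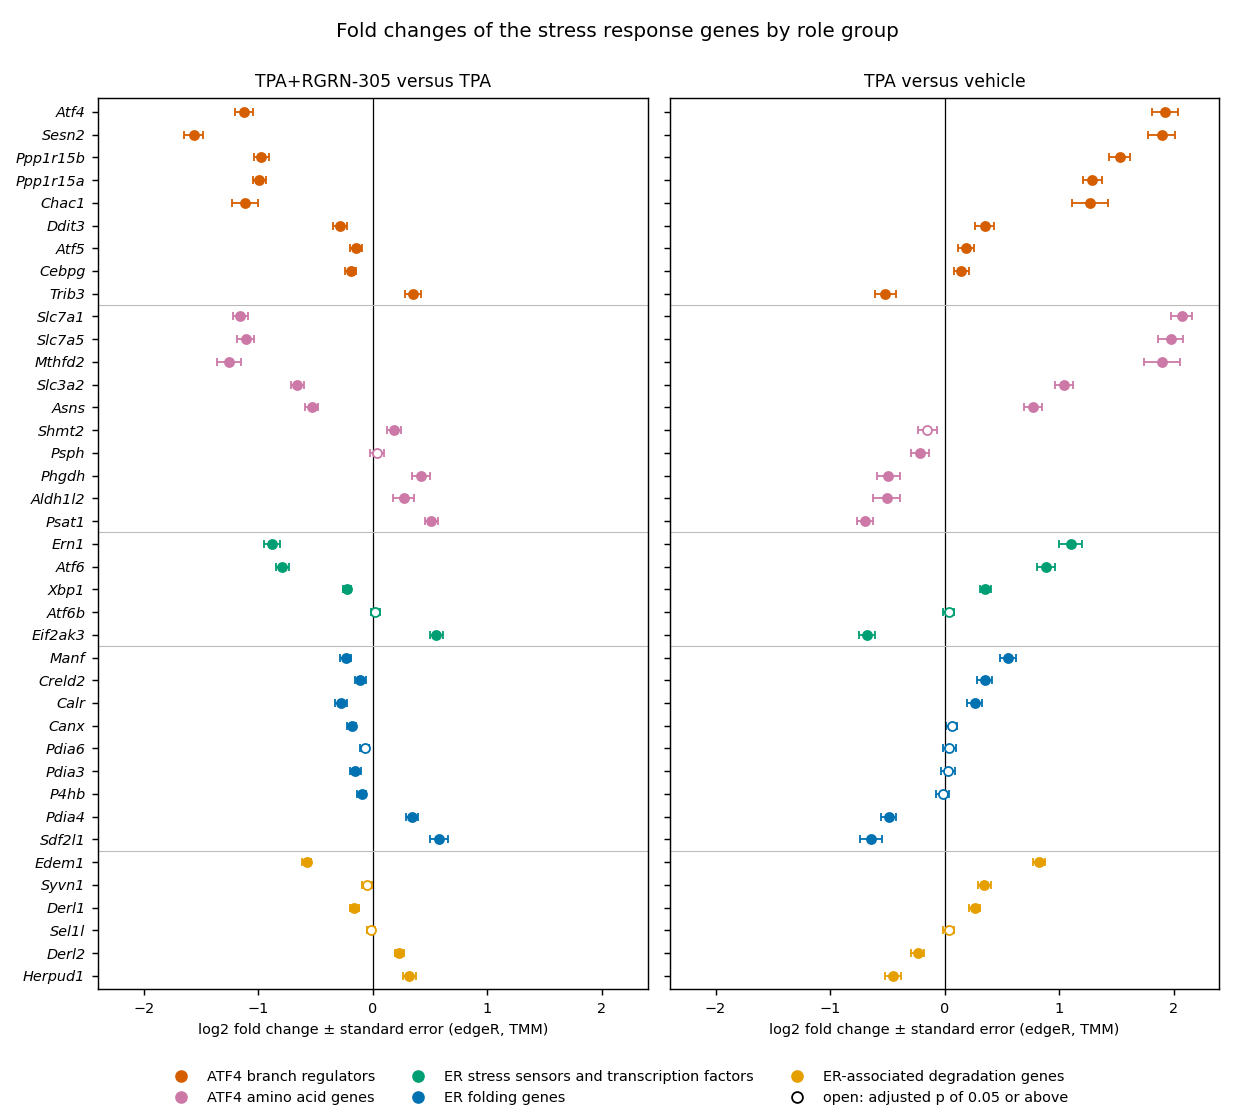
Log2 fold change (x axis, with standard error) of the 39 tested members (rows, by role group) in TPA+RGRN-305 versus TPA (left) and TPA versus vehicle (right), from edgeR with TMM scaling; open points had an adjusted p of 0.05 or above. The largest values belong to ATF4 branch regulators and amino acid genes (up to 2.07 with TPA), while ER folding genes lie between -0.64 and 0.55 with TPA; small positive values with TPA and small negative values with RGRN-305 added change sign with library totals alone.

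Atf4, Sesn2, Ppp1r15b, Ppp1r15a and Chac1 carried the change of the ATF4 branch regulators. Of the 9 regulators, 8 were higher and 1 was lower with TPA (median log2 fold change 1.27), and 1 was higher and 8 were lower when RGRN-305 was added (median -0.97). These counts were 5 and 1, and 1 and 5, with library totals alone. Atf4 (chr15:80139372-80141745 on GRCm39), the transcription factor that gives the branch its name, had a lowest, median and highest level of 173, 202 and 282 CPM in the 10 TPA+RGRN-305 mice and of 365, 477 and 518 CPM in the 10 TPA mice. RGRN-305 mice had 169, 138, 129 and 148 CPM and vehicle mice 112, 117, 143 and 119 CPM. Every TPA mouse lay above every other mouse, and TPA+RGRN-305 mice lay between TPA mice and vehicle mice with no overlap with either. The log2 fold change of Atf4 was 1.93 in TPA versus vehicle (± 0.12 standard error, edgeR adjusted p = 2.1e-15) and -1.13 in TPA+RGRN-305 versus TPA (± 0.08 standard error, edgeR adjusted p = 6.4e-14).

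Sesn2 (chr4:132219335-132237815), which encodes sestrin 2, a leucine sensor that restrains mTORC1, had the lowest fold change of all members with RGRN-305 added. Its lowest, median and highest levels were 31.7, 36.4 and 45.4 CPM in TPA+RGRN-305 mice and 87.5, 106 and 137 CPM in TPA mice, with 28.3, 31.0, 22.5 and 30.9 CPM in RGRN-305 mice and 28.1, 31.3, 30.4 and 27.2 CPM in vehicle mice. TPA mice stood clear of all others, and TPA+RGRN-305 mice came close to vehicle mice without overlapping them. The log2 fold change was 1.90 with TPA (± 0.12 standard error, edgeR adjusted p = 5.4e-15) and -1.57 with RGRN-305 added (± 0.08 standard error, edgeR adjusted p = 6.6e-17). Ppp1r15b (chr1:133058881-133067539) encodes CReP, the constitutive partner of the phosphatase that removes the phosphate from eIF2 and so ends the response. It had 82.6, 92.2 and 115 CPM (lowest, median, highest) in TPA+RGRN-305 mice and 174, 193 and 216 CPM in TPA mice, with 74.5, 76.7, 68.6 and 70.7 CPM in RGRN-305 mice and 61.0, 65.8, 76.8 and 61.9 CPM in vehicle mice. Its log2 fold change was 1.53 with TPA (± 0.09 standard error, edgeR adjusted p = 1.2e-15) and -0.97 with RGRN-305 added (± 0.06 standard error, edgeR adjusted p = 8.6e-15), again with no overlap between the groups compared. Ppp1r15a, which encodes GADD34, the inducible partner of the same phosphatase, followed it with log2 fold changes of 1.29 and -0.99. Chac1, a glutathione-degrading enzyme, had log2 fold changes of 1.27 and -1.12, with 3.32 ± 0.616 CPM in TPA+RGRN-305 mice, 7.20 ± 0.777 CPM in TPA mice and 2.97 ± 0.775 CPM in vehicle mice (SD, n = 10, 10 and 4).

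Trib3, Ddit3, Atf5 and Cebpg did not share this size of change. Trib3, a pseudokinase that restrains ATF4 and AKT and is itself a known ATF4 target, went the other way, with 9.55 CPM in TPA mice and 13.7 CPM in vehicle mice on average, a log2 fold change of -0.52 (edgeR adjusted p = 7.3e-06), and it was higher by 0.35 on the log2 scale with RGRN-305 added (edgeR adjusted p = 4.8e-05). Ddit3, which encodes CHOP, a factor tied to cell death under ER stress, had 0.35 and -0.29, and with library totals alone 0.06 (edgeR adjusted p = 0.49) and -0.03 (edgeR adjusted p = 0.64). Its value is uncertain for another reason. In GENCODE release M39, 82.4% of the 5579 exon bases of Ddit3 are shared with genes of the other strand, among them Mars1. The deposited length of Ddit3 is 1713 bases, so the shared part in the annotation used for counting is not known. The strand setting of the authors' counting is not given in the sources used here. Atf5, a factor related to ATF4, had 0.19 and -0.15, and Cebpg, a dimer partner of ATF4, had 0.15 and -0.19. Both changed sign with library totals alone, to -0.10 and 0.11 for Atf5 and to -0.14 and 0.07 for Cebpg. The TPA call was also lost without vehicle replicate 3 for Atf5 (edgeR adjusted p = 0.055) and without vehicle replicate 1, 3 or 4 for Cebpg (adjusted p = 0.15, 0.064 and 0.076, edgeR).

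The amino acid genes split into transporters with Mthfd2 and Asns, which rose with TPA, and the serine synthesis enzymes with Aldh1l2, which fell. Of the 10, 5 were higher and 4 lower with TPA (median 0.31, range -0.70 to 2.07), and 4 were higher and 5 lower with RGRN-305 added (median -0.25). Both comparisons had 5 higher and 5 lower with library totals alone. Slc7a1 (chr5:148264220-148336848), which encodes CAT-1, a transporter of arginine and lysine, had the highest TPA fold change of the 39 members. It had 79.8, 94.0 and 110 CPM (lowest, median, highest) in TPA+RGRN-305 mice and 166, 221 and 242 CPM in TPA mice, with 59.7, 75.7, 60.0 and 61.4 CPM in RGRN-305 mice and 52.0, 52.1, 53.2 and 47.2 CPM in vehicle mice. None of these groups overlapped with the next. The log2 fold change was 2.07 with TPA (± 0.09 standard error, edgeR adjusted p = 3.3e-18) and -1.16 with RGRN-305 added (± 0.06 standard error, edgeR adjusted p = 1.1e-16).

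Slc7a5 (chr8:122607884-122634433) encodes LAT1, which imports leucine and other large neutral amino acids. It had 119, 146 and 199 CPM in TPA+RGRN-305 mice and 284, 322 and 350 CPM in TPA mice (lowest, median, highest), with 89.8, 103, 104 and 87.5 CPM in RGRN-305 mice and 82.5, 72.1, 86.8 and 86.0 CPM in vehicle mice. The log2 fold changes were 1.97 (± 0.11 standard error, edgeR adjusted p = 2.6e-16) and -1.11 (± 0.07 standard error, edgeR adjusted p = 1.8e-14), and the groups compared did not overlap. Slc3a2, the heavy chain (CD98) that carries LAT1 to the cell surface, had 1.05 with TPA and -0.66 with RGRN-305 added. Mthfd2 (chr6:83282673-83302890), a mitochondrial enzyme of one-carbon metabolism, had 6.17, 7.73 and 11.1 CPM in TPA+RGRN-305 mice and 14.5, 19.3 and 24.5 CPM in TPA mice, and with 7.66, 6.24, 4.42 and 5.28 CPM in RGRN-305 mice and 4.42, 5.40, 5.55 and 5.47 CPM in vehicle mice. TPA mice lay above every other mouse, and the log2 fold changes were 1.90 (± 0.16 standard error, edgeR adjusted p = 2.5e-12) and -1.26 (± 0.11 standard error, edgeR adjusted p = 4.0e-12). Asns, asparagine synthetase and the best known ATF4 target among the enzymes, had 0.78 and -0.54.

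Psat1, Phgdh and Psph form the route that makes serine from a glycolytic intermediate, and their mRNAs were lower with TPA. Psat1 averaged 104 CPM in TPA+RGRN-305 mice, 73.1 CPM in TPA mice and 118.5 CPM in vehicle mice, with log2 fold changes of -0.70 with TPA (edgeR adjusted p = 1.7e-10) and 0.51 with RGRN-305 added (edgeR adjusted p = 7.4e-10). Phgdh, the first enzyme of the route, had -0.49 and 0.42. Psph, the last, fell by 0.21 on the log2 scale with TPA (edgeR adjusted p = 0.020; 0.060 without vehicle replicate 3 and 0.14 without vehicle replicate 4) and had 0.04 with RGRN-305 added (edgeR adjusted p = 0.62). Shmt2, which passes a carbon from serine to folate in mitochondria, had -0.15 with TPA (edgeR adjusted p = 0.11) and was higher by 0.18 with RGRN-305 added. Aldh1l2, a mitochondrial folate enzyme, had -0.51 and 0.27, the second of which was lost without the libraries with hair follicle keratins (0.19, adjusted p = 0.15, edgeR). Mthfd2 and Aldh1l2 thus moved in opposite directions within mitochondrial one-carbon metabolism.

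**Figure D2:**
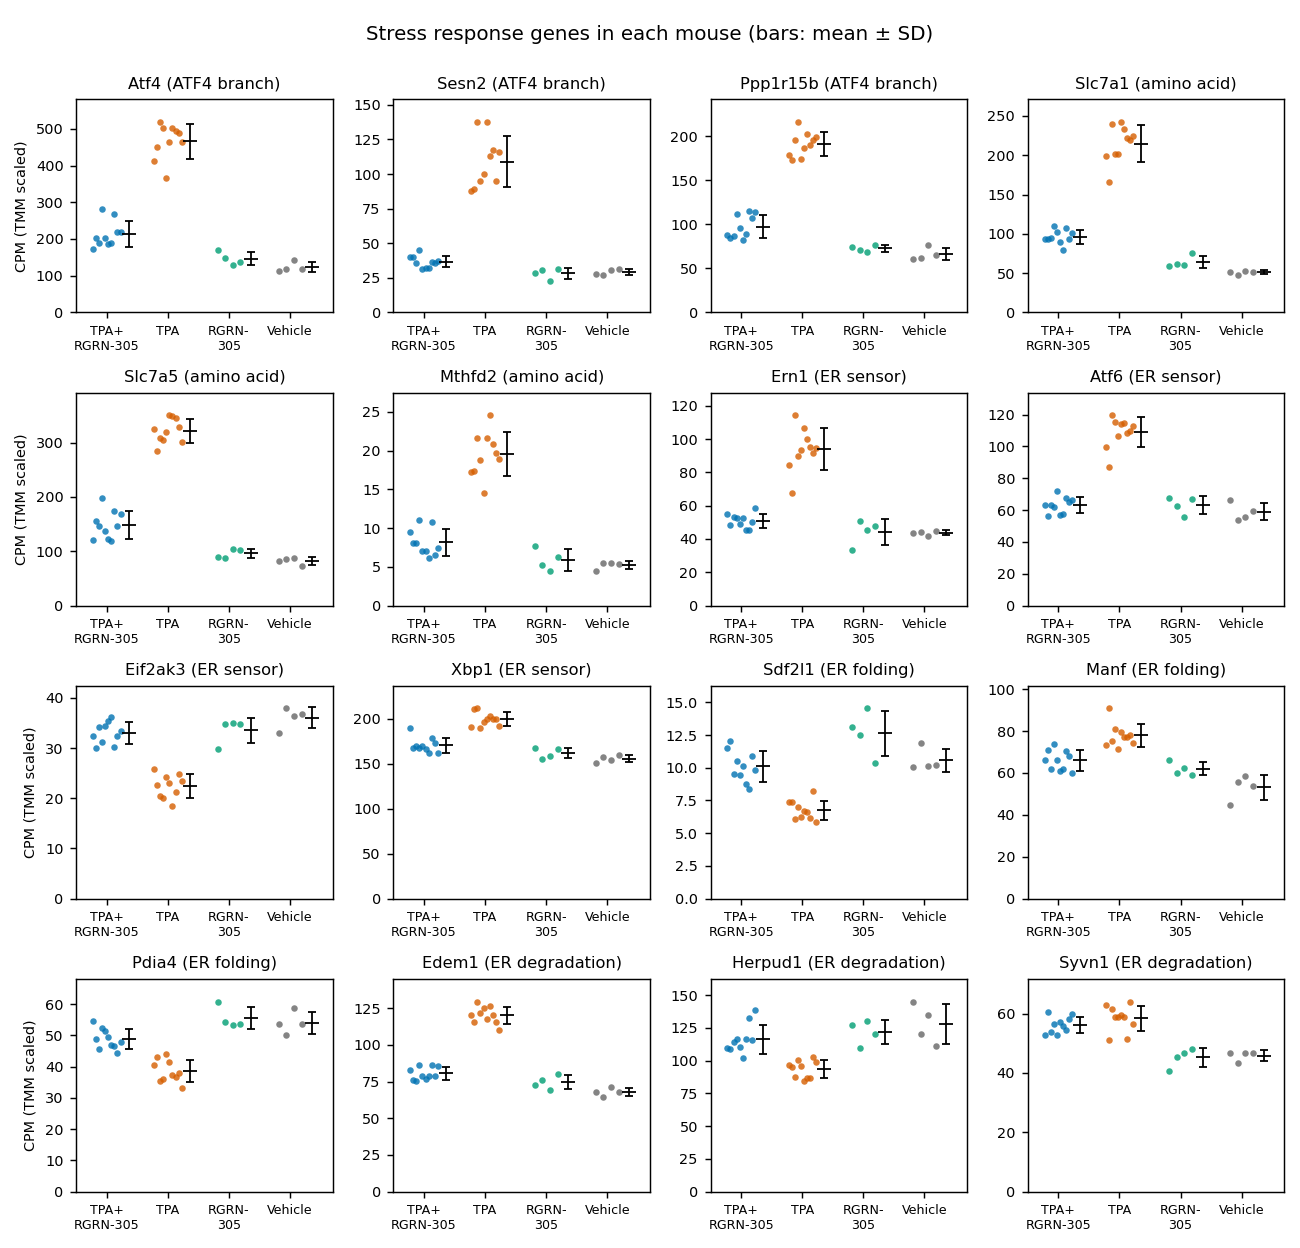
Level of 16 members in each mouse (y axis, CPM with TMM scaling from 0; x axis, TPA+RGRN-305, TPA, RGRN-305 and vehicle; 1 point per mouse, black marks are mean and SD, n = 10, 10, 4 and 4). For Atf4 the TPA mice sit between 365 and 518 CPM, above all others, while for Eif2ak3 they sit between 18.5 and 25.9 CPM, below all others; Xbp1 and the ER folding and degradation genes show smaller steps.

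ER folding genes and amino acid genes were set side by side mouse by mouse, as the mean log2 CPM of each group of genes minus its vehicle mean. The ER folding mean lay at -0.09 to 0.09 in TPA+RGRN-305 mice, -0.06 to 0.14 in TPA mice, -0.01 to 0.23 in RGRN-305 mice and -0.09 to 0.09 in vehicle mice, so that all 4 groups overlapped. The amino acid mean lay at 0.16 to 0.34 in TPA+RGRN-305 mice, 0.47 to 0.65 in TPA mice, 0.07 to 0.15 in RGRN-305 mice and -0.07 to 0.08 in vehicle mice. Here the TPA mice stood apart from all others and the TPA+RGRN-305 mice lay between. The ER folding mean minus the amino acid mean within a mouse averaged -0.24 ± 0.05 with TPA+RGRN-305, -0.55 ± 0.09 with TPA, -0.02 ± 0.09 with RGRN-305 and 0.00 ± 0.03 with vehicle (SD, n = 10, 10, 4 and 4). Over all genes tested the mean was 0.01 to 0.05 in TPA mice. The ATF4 branch regulators moved furthest, at 0.07 to 0.44 in TPA+RGRN-305 mice and 0.84 to 0.98 in TPA mice. These means rest on few genes that move in both directions (5 and 4 of the 10 amino acid genes, 3 and 2 of the 9 ER folding genes with TPA), and as the genes of a list are not replicates they were not tested. With library totals alone the median TPA log2 fold change was -0.25 for the ER folding genes and 0.03 for the amino acid genes, against -0.32 for all genes.

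**Figure D3:**
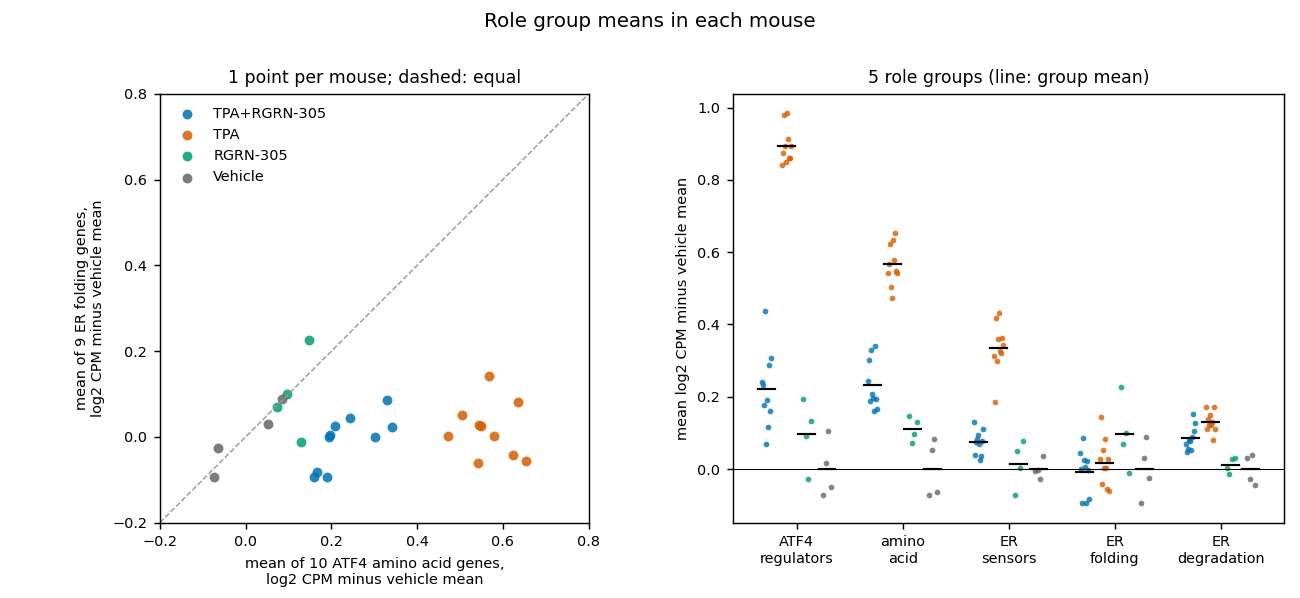
Means of log2 CPM over the genes of a role group in each mouse, minus the vehicle mean. Left, the 9 ER folding genes (y axis) against the 10 ATF4 amino acid genes (x axis), with a dashed line where both are equal; right, all 5 role groups with group means as black lines (TPA+RGRN-305, TPA, RGRN-305 and vehicle from left to right in the colours of the left panel). TPA mice lie at 0.47 to 0.65 on the amino acid axis but at -0.06 to 0.14 on the ER folding axis.

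Among the sensors, Ern1, Atf6 and Xbp1 rose with TPA and Eif2ak3 fell. Ern1 (chr11:106283818-106378686) had 45.2, 51.3 and 58.4 CPM (lowest, median, highest) in TPA+RGRN-305 mice and 67.4, 93.9 and 114 CPM in TPA mice, with 33.2, 47.5, 45.4 and 50.6 CPM in RGRN-305 mice and 43.8, 44.9, 41.5 and 44.2 CPM in vehicle mice. Its log2 fold change was 1.10 with TPA (± 0.10 standard error, edgeR adjusted p = 2.6e-11) and -0.88 with RGRN-305 added (± 0.07 standard error, edgeR adjusted p = 2.1e-12). Atf6 (chr1:170532026-170696208) had 56.2, 63.0 and 71.9 CPM in TPA+RGRN-305 mice and 87.3, 111 and 119 CPM in TPA mice, with 67.7, 66.6, 55.5 and 62.6 CPM in RGRN-305 mice and 66.1, 59.6, 55.6 and 53.9 CPM in vehicle mice. For both genes the TPA mice lay above all others, and for Atf6 the TPA+RGRN-305 mice overlapped with vehicle mice. The log2 fold changes of Atf6 were 0.89 (± 0.08 standard error, edgeR adjusted p = 6.0e-12) and -0.79 (± 0.05 standard error, edgeR adjusted p = 4.6e-14), while its relative Atf6b had 0.03 (edgeR adjusted p = 0.58) and 0.02 (edgeR adjusted p = 0.69).

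Eif2ak3 (chr6:70821461-70882235), the gene of the sensor PERK upstream of ATF4, moved against Atf4. It had 30.1, 32.9 and 36.3 CPM in TPA+RGRN-305 mice and 18.5, 22.9 and 25.9 CPM in TPA mice (lowest, median, highest), with 29.8, 34.8, 34.9 and 34.8 CPM in RGRN-305 mice and 33.1, 36.7, 36.5 and 37.9 CPM in vehicle mice. All TPA mice lay below every other mouse. The log2 fold change was -0.68 with TPA (± 0.07 standard error, edgeR adjusted p = 4.0e-10) and 0.55 with RGRN-305 added (± 0.05 standard error, edgeR adjusted p = 1.7e-10). Xbp1 (chr11:5470606-5483027) had 162, 169 and 190 CPM in TPA+RGRN-305 mice and 189, 199 and 212 CPM in TPA mice, with 168, 166, 158 and 156 CPM in RGRN-305 mice and 151, 160, 155 and 158 CPM in vehicle mice. TPA mice lay above vehicle mice, and 9 of the 10 TPA+RGRN-305 mice lay below all TPA mice. Its log2 fold change of 0.36 with TPA (± 0.05 standard error, edgeR adjusted p = 6.2e-08) was 0.07 with library totals alone (edgeR adjusted p = 0.18). With RGRN-305 added it was -0.23 (± 0.03 standard error, edgeR adjusted p = 1.1e-06), and 0.03 with library totals alone (edgeR adjusted p = 0.39). Of the 5 genes, 3 were higher and 1 lower with TPA, and 1 was higher and 3 lower with RGRN-305 added (2 and 2 in each comparison with library totals alone).

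None of the 9 ER folding members changed by 2-fold in either comparison. Of the 9, 3 were higher (Manf, Creld2 and Calr) and 2 lower (Sdf2l1 and Pdia4) with TPA, and 2 were higher (Sdf2l1 and Pdia4) and 6 lower with RGRN-305 added, with medians of 0.04 and -0.11. Without the low-count filter 3 were lower with RGRN-305 added. With library totals alone 1 was higher and 6 lower with TPA, and 6 were higher and 0 lower with RGRN-305 added, so that the direction of the group as a whole depends on the scaling. Sdf2l1 (chr16:16948002-16950252), a partner of the ER chaperone BiP, had 8.38, 9.95 and 12.0 CPM in TPA+RGRN-305 mice and 5.84, 6.66 and 8.21 CPM in TPA mice (lowest, median, highest), with 13.1, 10.3, 14.5 and 12.5 CPM in RGRN-305 mice and 10.0, 10.2, 10.1 and 11.9 CPM in vehicle mice. TPA mice lay below all others. Its log2 fold change was -0.64 with TPA (± 0.10 standard error, edgeR adjusted p = 7.5e-07) and 0.58 with RGRN-305 added (± 0.08 standard error, edgeR adjusted p = 6.2e-08).

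Pdia4 (chr6:47770077-47790462), a disulfide isomerase, went the same way as Sdf2l1. Its levels were 44.4, 48.4 and 54.7 CPM in TPA+RGRN-305 mice and 33.2, 37.7 and 44.1 CPM in TPA mice, with 60.8, 53.5, 53.2 and 54.4 CPM in RGRN-305 mice and 53.7, 53.5, 58.8 and 50.2 CPM in vehicle mice. The log2 fold changes were -0.49 (± 0.07 standard error, edgeR adjusted p = 8.7e-08) and 0.34 (± 0.05 standard error, edgeR adjusted p = 6.0e-07), with no overlap between the groups compared. Manf (chr9:106715511-106769727), a secreted ER protein that binds BiP, had 60.0, 66.1 and 73.8 CPM in TPA+RGRN-305 mice and 71.5, 77.1 and 90.8 CPM in TPA mice, with 66.3, 59.1, 62.1 and 60.2 CPM in RGRN-305 mice and 44.6, 53.9, 58.3 and 55.5 CPM in vehicle mice. All TPA mice exceeded all vehicle mice, whereas the TPA+RGRN-305 mice overlapped with the TPA mice. Its log2 fold change was 0.55 with TPA (± 0.07 standard error, edgeR adjusted p = 1.3e-08) and -0.24 with RGRN-305 added (± 0.05 standard error, edgeR adjusted p = 7.9e-05), the second of which was 0.02 with library totals alone. In GENCODE release M39, 32.6% of the 12163 exon bases of Manf are shared with other genes of its strand. Reads counted only if unambiguous would be lost there. The deposited length of Manf is 3524 bases, so the shared part in the annotation used for counting is not known.

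The abundant members of the group, the lectin chaperones Calr and Canx and the disulfide isomerases Pdia3, Pdia6 and P4hb, had TPA log2 fold changes from -0.01 (P4hb) to 0.26 (Calr), of which that of Calr passed the test (edgeR adjusted p = 9.0e-04) and changed sign with library totals alone (-0.02). With RGRN-305 added, Calr, Canx, Pdia3 and P4hb were lower by 0.28, 0.19, 0.15 and 0.10 on the log2 scale, and Canx, Pdia3 and P4hb changed sign with library totals alone (0.07, 0.10 and 0.16). The call of P4hb was lost without TPA+RGRN-305 mouse 6 (edgeR adjusted p = 0.056) and without the libraries with hair follicle keratins (0.11). Creld2, a secreted isomerase-like protein, had 0.35 and -0.11, of which the second was 0.15 with library totals alone and was lost without the libraries with hair follicle keratins (edgeR adjusted p = 0.064).

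The promoters of ER folding genes carry a known binding element for ATF6 and XBP1, the ER stress response element, spelled CCAAT, 9 bases, CCACG on either strand. It was searched in the 250 bases before the start of each gene in the RefSeq promoter table on GRCm38.p6, which held 34 of the 40 members, with Ppp1r15b, Aldh1l2, Slc7a5, Atf6, Manf and Derl1 not matched. The element was in 0.113% of 32851 promoters, and among the members it was in Calr, Canx, Pdia6 and Creld2 (4 of the 8 ER folding genes matched), in Syvn1 and Derl3, and in 0 of 8 amino acid genes. The short form of this element, ATTGG, 1 base, CCACG (0.0304% of promoters), was in Herpud1. The composite site of C/EBP and ATF factors through which ATF4 is known to act, TGATG, 1 base, AA (3.45% of promoters), was in Asns, Chac1 and Herpud1. CCACG alone, which is part of both ER stress elements, was in 23 of the 34 and in 28.3% of all promoters. The ER folding genes that hold the element and Asns are shown because they set the ER elements beside the ATF4 site. Stretches run 5′ to 3′ on the strand of the gene, with the motif in capitals, which in Calr and Creld2 is read from the other strand. They lie at chr8:84847055-84847113 (minus strand) for Calr, chr11:50325780-50325838 (minus) for Canx, chr12:17266471-17266529 (plus) for Pdia6, chr15:88819500-88819558 (plus) for Creld2 and chr6:7693210-7693252 (minus) for Asns, all on GRCm38.p6.
Calr: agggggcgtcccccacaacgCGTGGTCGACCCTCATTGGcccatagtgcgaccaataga
Canx: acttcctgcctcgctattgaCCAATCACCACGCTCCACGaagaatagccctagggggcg
Pdia6: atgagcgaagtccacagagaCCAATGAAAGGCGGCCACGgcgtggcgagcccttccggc
Creld2: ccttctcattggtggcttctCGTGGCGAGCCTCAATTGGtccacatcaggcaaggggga
Asns: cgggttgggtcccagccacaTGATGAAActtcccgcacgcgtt
The motif begins 162, 145, 98 and 126 bases before the start of Calr, Canx, Pdia6 and Creld2 and 23 bases before that of Asns. The 4 ER folding genes with the element changed with TPA by 0.26, 0.06, 0.04 and 0.35 on the log2 scale (Canx and Pdia6 not called), and Asns had 0.78. A match of letters is a description and not a bound site.

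Edem1 rose and Herpud1 fell among the genes of ER-associated degradation. Of 6 tested, 3 were higher and 2 lower with TPA (median 0.15), and 2 were higher and 2 lower with RGRN-305 added (median -0.04), while with library totals alone 1 was higher and 3 lower, and 5 were higher and 1 lower. Edem1 (chr6:108805457-108838955), which trims mannose from misfolded glycoproteins and so marks them for removal, had 75.2, 79.1 and 86.6 CPM in TPA+RGRN-305 mice and 110, 120 and 130 CPM in TPA mice (lowest, median, highest), with 72.9, 80.01, 69.2 and 76.3 CPM in RGRN-305 mice and 67.7, 68.2, 71.7 and 64.8 CPM in vehicle mice. TPA mice lay above all others, and TPA+RGRN-305 mice lay above vehicle mice. The log2 fold change was 0.82 with TPA (± 0.05 standard error, edgeR adjusted p = 8.2e-15) and -0.58 with RGRN-305 added (± 0.04 standard error, edgeR adjusted p = 1.4e-14). Herpud1 (chr8:95113022-95123141), a scaffold of the retrotranslocation complex, had 102, 115 and 139 CPM in TPA+RGRN-305 mice and 84.5, 95.5 and 103 CPM in TPA mice, with 127, 120, 130 and 110 CPM in RGRN-305 mice and 145, 111, 135 and 120 CPM in vehicle mice. TPA mice lay below vehicle mice and overlapped slightly with TPA+RGRN-305 mice, with log2 fold changes of -0.45 (± 0.07 standard error, edgeR adjusted p = 1.8e-06) and 0.32 (± 0.06 standard error, edgeR adjusted p = 8.5e-06).

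Syvn1 (chr19:6096606-6103747), which encodes HRD1, the ubiquitin ligase of the complex, was higher with TPA and was not called when RGRN-305 was added. It had 52.8, 56.2 and 60.4 CPM in TPA+RGRN-305 mice and 51.3, 58.8 and 64.1 CPM in TPA mice, with 40.8, 48.0, 46.7 and 45.4 CPM in RGRN-305 mice and 46.7, 46.7, 46.9 and 43.2 CPM in vehicle mice. Both TPA-treated groups lay above all RGRN-305 and vehicle mice and overlapped with each other. The log2 fold change was 0.35 with TPA (± 0.06 standard error, edgeR adjusted p = 4.3e-06; 0.06 and adjusted p = 0.36 with library totals alone) and -0.05 with RGRN-305 added (± 0.04 standard error, edgeR adjusted p = 0.27), the second of which was 0.20 with library totals alone. Sel1l, the adaptor of HRD1, had 0.04 (edgeR adjusted p = 0.51) and -0.02 (edgeR adjusted p = 0.73). The pore proteins Derl1 and Derl2 went opposite ways, at 0.26 and -0.16 for Derl1 and at -0.23 and 0.23 for Derl2, and Derl1 changed sign in both comparisons with library totals alone (-0.02 and 0.09).

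Of the 22 members that TPA raised, 21 were lower when RGRN-305 was added and 0 were higher, the exception being Syvn1, and of the 10 that TPA lowered, 9 were higher and 0 lower, the exception being Psph. The 2 comparisons share the TPA mice, so that this count is no independent support for a reversal. The same count over all genes is not given here, so it does not show that the members differ from other genes. TPA+RGRN-305 was therefore also set against vehicle and against RGRN-305 alone. In TPA+RGRN-305 versus vehicle, 14 members were higher and 0 lower (11.7% and 10.3% of all genes). Atf4 stayed higher by 0.80 on the log2 scale (edgeR adjusted p = 3.1e-06), Slc7a1 by 0.91, Slc7a5 by 0.86, Mthfd2 by 0.64 and Ppp1r15b by 0.55. Sesn2 had 0.33, which was lost without vehicle replicate 1, 3 or 4 (adjusted p = 0.094, 0.054 and 0.12, edgeR). Ern1 had 0.22 (edgeR adjusted p = 0.096) and Atf6 had 0.10 (edgeR adjusted p = 0.37), and neither was called. For Ern1 all 10 TPA+RGRN-305 mice lay just above all vehicle mice (lowest 45.2 CPM against a highest of 44.9 CPM). The share of all genes with such an order is not given here, so the order is no sign of an effect. Syvn1 and Edem1 were higher by 0.29 and 0.24, Manf by 0.31 and Creld2 by 0.24 (edgeR adjusted p = 0.062 without vehicle replicate 1). The other calls were Ppp1r15a (0.30), Slc3a2 (0.39), Asns (0.24, lost without vehicle replicate 1 or 2) and Xbp1 (0.13, lost without any 1 of the vehicle mice). Without the libraries with hair follicle keratins 12 were higher, and leaving out 1 vehicle or RGRN-305 mouse gave 10 to 14.

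RGRN-305 alone against vehicle gives the values of the inhibitor without TPA. With edgeR, 0 of 39 members were called in either direction (0% and 0% of all genes), and 5 had an unadjusted p under 0.05, among 1810 of all genes, where the smallest adjusted p of all genes was 0.273. DESeq2 also called 0 members. The 5 were Slc7a1, Manf, Sdf2l1, Creld2 and Edem1, all higher with RGRN-305. Slc7a1 had a log2 fold change of 0.33 (± 0.10 standard error, edgeR adjusted p = 0.41) and Manf of 0.22 (± 0.08 standard error, edgeR adjusted p = 0.43). In both, as in Slc7a5 (0.23, adjusted p = 0.54, edgeR), the 4 RGRN-305 mice lay above the 4 vehicle mice. None of these genes was called. The share of all genes with such an order of the mice is not given here, so the order is no sign of an effect. Atf4 had 0.25 (± 0.13 standard error, edgeR adjusted p = 0.53). The standard errors of the members ran from 0.06 to 0.19 on the log2 scale, against a TPA log2 fold change of 1.93 for Atf4.

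In TPA+RGRN-305 versus RGRN-305, which gives the TPA effect in treated skin with other controls, 8 members were higher and 3 lower (8.72% and 5.33% of all genes). Atf4, Slc7a5, Slc7a1, Ppp1r15b and Mthfd2 had log2 fold changes of 0.55, 0.63, 0.59, 0.42 and 0.47, and Sesn2, Syvn1 and Ppp1r15a were the other higher genes, while Trib3, Canx and Sdf2l1 were lower (-0.33, -0.21 and -0.32). Leaving out RGRN-305 replicate 3 or the libraries with hair follicle keratins gave 5 higher, and without RGRN-305 replicate 1 there was 1 lower. Mthfd2 lost its call without RGRN-305 replicate 2, 3 or 4, Sesn2 without 1 or 3, Ppp1r15a without any 1 of the 4, Sdf2l1 without 1 or 3 and Canx without 1. The TPA effect without the inhibitor and with it was compared by the interaction of both treatments. It was called for 27 members, 6 higher and 21 lower (25.8% and 25.0% of all genes). The interaction was -1.51 for Sesn2 (± 0.16 standard error, edgeR adjusted p = 2.3e-09), -1.49 for Slc7a1 (± 0.12 standard error, edgeR adjusted p = 1.4e-11) and -1.38 for Atf4 (± 0.15 standard error, edgeR adjusted p = 5e-09) on the log2 scale. It was 0.66 for Eif2ak3 (± 0.10 standard error, edgeR adjusted p = 2.4e-06) and 0.51 for Psat1 (± 0.10 standard error, edgeR adjusted p = 8.9e-05), where the TPA effect was a fall. By role, 7 of the 9 regulators, 7 of the 10 amino acid genes (2 higher, 5 lower), 4 of the 5 sensors, 5 of the 9 ER folding genes and 4 of the 6 degradation genes had a called interaction. Scaled by totals alone, 15 members were higher and 13 lower, where 75.7% of all genes called were higher.

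Of 54 other genes of these pathways, 53 were tested. With TPA 25 were higher and 13 lower (31.6% and 34.4% of all genes). With RGRN-305 added 12 were higher and 26 lower (33.0% and 32.6% of all genes). Counts of these genes with library totals alone are not given here. Hspa5, which encodes the main ER chaperone BiP, moved more than any of the 9 ER folding members, with 295 ± 27.1 CPM in TPA+RGRN-305 mice, 574 ± 46.2 CPM in TPA mice, 278 ± 29.98 CPM in RGRN-305 mice and 248 ± 14.3 CPM in vehicle mice (SD, n = 10, 10, 4 and 4). Its log2 fold change was 1.21 with TPA (edgeR adjusted p = 1.1e-14) and -0.96 with RGRN-305 added (edgeR adjusted p = 6.9e-16). Of the 13 ER chaperones and oxidases outside the members, Hspa5 included, 7 were higher and 2 lower with TPA, at a median of 0.31. With RGRN-305 added 1 of them was higher and 8 were lower. Dnajb9, a BiP co-chaperone known as an XBP1 target, had 0.50 and -0.58. Atf3, a stress factor downstream of ATF4 and of other pathways, had the highest TPA fold change of these genes, 3.47 (edgeR adjusted p = 1.5e-07), with 12.6 to 100.2 CPM in TPA+RGRN-305 mice, 102 to 177 CPM in TPA mice and 7.75 to 24.8 CPM in vehicle mice. Slc7a11, the cystine importer, had 2.15 and -1.46. Stc2, a secreted glycoprotein known in cultured cells as an ATF4 target, had the lowest, -1.14 with TPA, and 1.02 with RGRN-305 added. Of the 13 other amino acid genes, Slc7a11 included, 7 were higher and 4 lower with TPA (median 0.31). With RGRN-305 added 4 of them were higher and 6 lower. Of the 12 tested eIF2 kinases, ATF4 partners and targets, Atf3 and Stc2 included, 5 were higher and 3 lower with TPA (median 0.10). With RGRN-305 added 2 of the 12 were higher and 6 lower.

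Levels per kilobase of the deposited gene length differed widely between the members. In vehicle mice the mean was 148 CPM per kilobase for P4hb, 129 for Calr, 93.6 for Pdia3 and 62.3 for Canx, all ER folding genes. Herpud1 (54.8), Atf4 (52.0) and Xbp1 (48.0) came next, while Mthfd2 (1.49), Chac1 (1.82) and Slc7a1 (4.43), which had high TPA fold changes, were among the lowest. In TPA mice Slc7a1 had 18.6 CPM per kilobase and P4hb 146.

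**Figure D4:**
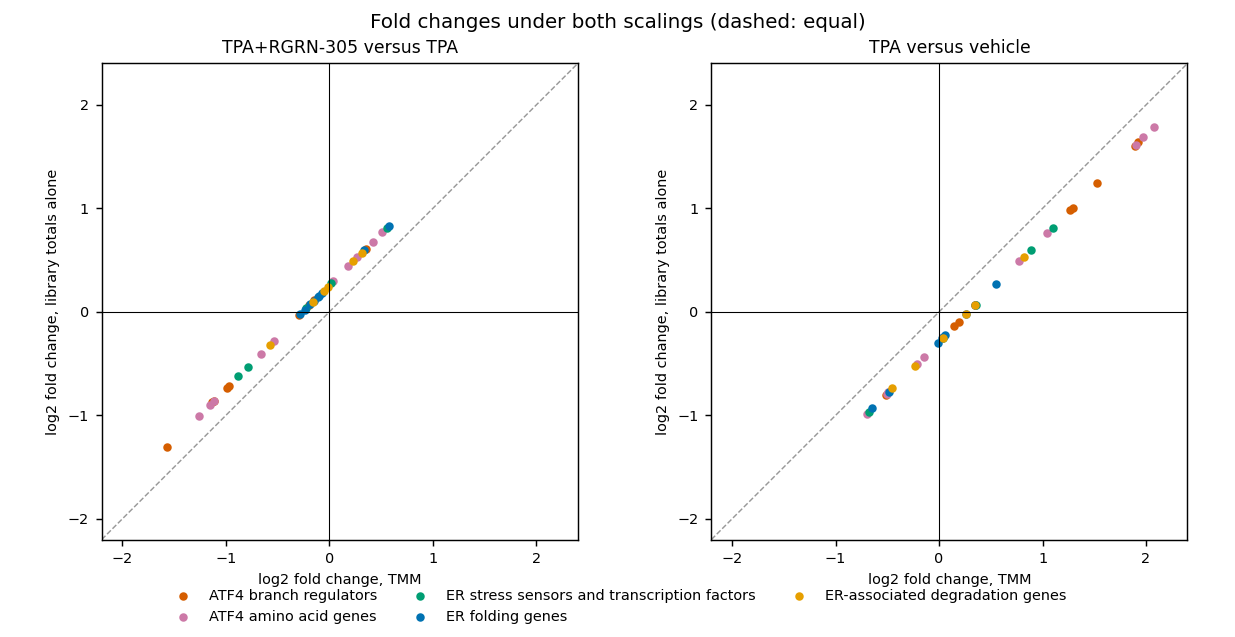
Log2 fold change of the 39 tested members with TMM scaling (x axis) and with library totals alone (y axis) in TPA+RGRN-305 versus TPA (left) and TPA versus vehicle (right), coloured by role group, with a dashed line where both are equal. All members shift by nearly the same amount (the median of all genes by 0.26 and -0.29), so that members with a small rise with TPA or a small fall with RGRN-305 added, among them Canx and Derl1, change sign while Atf4 (1.93 and 1.64 with TPA) does not.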

How the data were processed

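The authors deposited raw read counts per gene with a gene length, made from directional paired-end libraries (1 per mouse) on GRCm39 with Subread 2.10.3, counting uniquely mapped reads that fell in 1 gene. The annotation release and strand setting are not given in the sources used here. All 28 columns were tied to a sample by their labels, with 0 columns left over. Of 55414 gene identifiers 54749 matched GENCODE release M39, and the 665 others held 0.0567% of the counts. The symbol Ddit3 stands for more than 1 identifier, of which ENSMUSG00000025408 was used. The members and lists were chosen with earlier results of these data known.

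Counts were tested with edgeR 4.0.16 in R 4.3.3 (filterByExpr, TMM, glmQLFit and glmQLFTest) in 1 fit over all 4 groups, with Benjamini-Hochberg adjustment over 18991 genes. A gene was called at an adjusted p under 0.05, and at 2-fold with an absolute log2 fold change over 1. CPM values use TMM-scaled totals, except those of Xist and the Krt71 threshold, which use library totals alone. Depth per library was 16751780 to 24716640 counts, and error bars cover the spread between mice. Values per mouse are given for the 3 members of each role group with the largest called TPA change, the 2 with the largest called change when RGRN-305 was added, any called in the same direction in both, and Atf4 and Xbp1. Outside the 40, Hspa5, Dnajb9, Atf3, Slc7a11 and the largest called TPA changes were named. The other listed amino acid transporter genes outside the 40 were named as well. Alternatives were scaling by RLE or by library totals alone, testing genes of any count, DESeq2 1.42.0, a fit on only the groups compared, a replicate block, leaving out each vehicle or RGRN-305 mouse, leaving out TPA+RGRN-305 mouse 6 and, chosen after seeing the data, leaving out libraries with hair follicle keratins. Mice with the same number correlated at -0.129 to 0.204, so the numbers were not taken as pairs. The fit was tested on simulated data. Promoters were searched in the RefSeq table (GRCm38.p6) by name, and no coordinates were converted between builds.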

Additional observations from a re-analysis of the deposited data

Results flagged for a closer look

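In 14 of 176 groups of values, 1 mouse lay apart from the rest of its group by Dixon's criterion, where chance gives about 1 in 20 (8.8 of 176). RGRN-305 mouse 1 was lowest for Aldh1l2 (6.52 CPM, others 7.33 to 7.44) and Eif2ak3 (29.8 CPM, others 34.8 to 34.9) and highest for Pdia4 (60.8 CPM, others 53.2 to 54.4) and Derl1 (98.0 CPM, others 83.5 to 85.2). RGRN-305 mouse 2 was highest for Slc7a1 (75.7 CPM, others 59.7 to 61.4). Vehicle mouse 1 was lowest for Mthfd2 (4.42 CPM, others 5.40 to 5.55) and highest for Sel1l (138 CPM, others 129.9 to 131). Vehicle mouse 4 was highest for Sdf2l1 (11.9 CPM, others 10.0 to 10.2) and lowest for Syvn1 (43.2 CPM, others 46.7 to 46.9). Among TPA mice, mouse 10 was lowest for Shmt2 (24.8 CPM, others 29.4 to 34.2), mouse 6 highest for Atf6b (64.7 CPM, others 54.8 to 59.7) and mouse 4 highest for Manf (90.8 CPM, others 71.5 to 81.0). Among TPA+RGRN-305 mice, mouse 10 was highest for Slc3a2 (192 CPM, others 128 to 157) and mouse 8 lowest for P4hb (345 CPM, others 383 to 412).

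The TPA effect differed between mice with and without RGRN-305 for 27 of 39 members (edgeR interaction, adjusted p from 1.4e-11 for Slc7a1 to 0.047 for Cebpg). Of these, 6 were higher and 21 lower, where 25.8% of all genes were called higher and 25.0% lower. The log2 interaction of the ATF4 branch regulators was -1.38 for Atf4, -0.38 for Ddit3, -1.33 for Chac1, -0.21 for Cebpg, -1.51 for Sesn2, -1.06 for Ppp1r15a and -1.10 for Ppp1r15b. For the amino acid genes it was -0.71 for Asns, 0.51 for Psat1, 0.40 for Phgdh, -1.43 for Mthfd2, -1.34 for Slc7a5, -0.84 for Slc3a2 and -1.49 for Slc7a1. For the sensors it was -0.28 for Xbp1, -0.90 for Ern1, 0.66 for Eif2ak3 and -0.89 for Atf6. For the ER folding genes it was -0.34 for Calr, -0.27 for Canx, 0.30 for Pdia4, -0.28 for Creld2 and -0.46 for Manf. For the degradation genes it was 0.39 for Herpud1, -0.20 for Derl1, 0.28 for Derl2 and -0.71 for Edem1. Cebpg, Xbp1, Canx, Creld2 and Derl1 changed sign with library totals alone. Leaving out 1 mouse ended the call of Cebpg (vehicle 1, 3 or 4, or RGRN-305 1, 2 or 4, edgeR adjusted p of 0.061 to 0.14), Phgdh (vehicle 3 or RGRN-305 2, 0.071 and 0.076) and Derl1 (RGRN-305 1, 0.077), and that of Pdia4 ended without the libraries with hair follicle keratins (0.061).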

How the results depend on the processing

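RLE size factors left all counts of members within 1.5 times. With library totals alone, TPA versus vehicle gave 14 members higher (5 regulators, 1 ER folding and 1 degradation gene) and 17 lower (2 sensors and 6 ER folding genes). TPA+RGRN-305 versus TPA gave 19 higher (2 sensors, 6 ER folding and 5 degradation genes) and 13 lower (5 regulators, 0 ER folding and 1 degradation gene), TPA+RGRN-305 versus vehicle 3 lower, and the interaction 15 higher and 13 lower. Values that changed sign in TPA versus vehicle were Atf5 -0.10, Cebpg -0.14, Atf6b -0.25, Calr -0.023, Canx -0.23, Pdia3 -0.26, Pdia6 -0.25, Sel1l -0.25 and Derl1 -0.023. In TPA+RGRN-305 versus TPA they were Atf5 0.11, Cebpg 0.067, Xbp1 0.033, Canx 0.072, Pdia3 0.10, Pdia6 0.18, P4hb 0.16, Creld2 0.15, Manf 0.017, Sel1l 0.24, Syvn1 0.20 and Derl1 0.095. In the interaction they were Cebpg 0.078, Psph 0.28, Xbp1 0.0066, Atf6b 0.28, Canx 0.021, P4hb 0.18, Creld2 0.0055, Sel1l 0.23, Syvn1 0.25 and Derl1 0.087. The scaling itself moves all genes together. Of all genes called with library totals alone, 28.1% were higher in TPA versus vehicle. That share was 74.2% in TPA+RGRN-305 versus TPA and 75.7% in the interaction. Without the low-count filter 3 ER folding genes were lower in TPA+RGRN-305 versus TPA, and the cause was not tested. Leaving out 1 mouse gave 0 to 1 lower in TPA+RGRN-305 versus vehicle, and 5 to 8 higher and 1 to 4 lower in TPA+RGRN-305 versus RGRN-305. Without the libraries with hair follicle keratins 5 were higher there.

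With the replicate block, 21 members were higher and 9 lower in TPA versus vehicle, 10 and 23 when RGRN-305 was added to TPA, 0 and 0 in RGRN-305 versus vehicle, 11 and 0 in TPA+RGRN-305 versus vehicle, 5 and 0 in TPA+RGRN-305 versus RGRN-305, and 7 and 20 in the interaction. Same-numbered mice shared only a number (0 of 4 pairs over a correlation of 0.1 in each pairing with a group of 4, and 2 of 10 for TPA+RGRN-305 and TPA). RGRN-305 alone rests on 4 mice in each group, and Derl3 was too low to test.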
